A study of Arabidopsis thaliana with 27 samples.

Results

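The stress ERF transcription factors of Arabidopsis thaliana were followed as a set of genes chosen by name: ERF1A, ERF2, ERF5, ERF6, ERF13, ERF104, ERF105, RRTF1, ORA59 and ERF1B. They were 10 of the 32627 loci on the array, each measured by 1 feature of 3 or 4 probe pairs. The genes were chosen with earlier results of these data known, so counts set beside shares of all features are descriptions. RNA was taken from 2-week-old plants of the Col-0 ecotype in 3 genotypes: gox2, labelled as the mutant of the peroxisomal glycolate oxidase gene GOX2, the overexpression line 35S::GOX2, driven by the constitutive 35S promoter, and wild type (WT). Seedlings of each were treated with Cd at 100 µM for 30 min or 24 h, or kept in Cd-free solution as a control, giving 9 groups of 3 arrays. Each array held RNA pooled from at least 5 seedlings, and the 27 samples are labelled as independent biological replicates. The labels give the short exposure as 0.5 h, whereas the growth methods give 1 h. They read atgox, with no gene number, on the control arrays that are called gox2 control here.

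ERF proteins carry a single AP2/ERF DNA-binding domain, and those of group IX bind the GCC box in the promoters of defence genes. Ethylene is synthesised by ACS and ACO enzymes and stabilises EIN3 and EIL1, which switch on ERF1B. Both ERF1B and ORA59 respond to ethylene and jasmonate. ERF5, ERF6 and ERF104 are instead best known as phosphorylation targets of the mitogen-activated protein kinases MPK3 and MPK6, and RRTF1 (redox responsive transcription factor 1, also ERF109) as an early gene of wounding and oxidative stress. The 10 genes therefore cover the kinase-linked groups IXa and IXb (ERF1A, ERF2 and ERF13, and ERF5, ERF6, ERF104 and ERF105), group X (RRTF1) and the ethylene and jasmonate group IXc (ORA59 and ERF1B). ERF1A and ERF6 are neighbours with no gene between them in the RefSeq annotation, and ERF2 and ERF5 have 2 genes between them.

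The labels were checked before the ERF genes were read. GOX2 itself went against them. It was at 9.60 to 9.79 on the log2 scale in the 35S::GOX2 control arrays, whereas the gox2 control arrays were at 14.02 to 14.21. It was at or below 10.45 in 9 arrays (those labelled 35S::GOX2 control, gox2 Cd 30 min and WT Cd 30 min) and at or above 13.63 in the other 18. Arrays were then compared over all features but those of the 10 ERF genes. By this, 8 of the 27 arrays were closest to an array of another label. All 8 were in the groups gox2 control, gox2 Cd 24 h, 35S::GOX2 Cd 30 min and 35S::GOX2 Cd 24 h. Joining each array to its closest one gave 9 sets of 3 arrays, of which 5 held 1 label and 4 held several. Genotype and treatment below therefore mean the labels of the arrays only. The tissue is labelled leaves and the protocols name seedlings. Leaf markers were bright (7 of 8 with a mean above that of at least 97.6% of features), and the 10 root markers had medians of 9.57 (NRT2:1) to 13.72 (CASP1), with means above those of 46% to 92.8% of features.

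RRTF1 (AT4G34410) varied more over the 27 arrays than any other member, with a range of 4.89 on the log2 scale that exceeded the range of 99.9% of features. RRTF1 on the gox2 arrays read 7.71, 10.23 and 10.05 in control, 8.18, 7.88 and 8.12 at 30 min, and 10.15, 8.15 and 12.57 at 24 h. On the 35S::GOX2 arrays RRTF1 read 12.60, 12.36 and 12.34 in control, 12.54, 8.13 and 12.41 at 30 min, and 8.09, 7.94 and 8.10 at 24 h. WT arrays gave 8.67, 8.83 and 8.72 in control, 8.17, 8.41 and 7.95 at 30 min, and 8.85, 8.26 and 8.91 at 24 h for RRTF1. The gene was thus above 12 on 6 arrays, between 10 and 12 on 3 and below 9 on the other 18. The 3 arrays labelled 35S::GOX2 Cd 30 min did not read alike, with an SD of 2.51, the largest of any member in any group. The same held for gox2 Cd 24 h, whose replicate 3 read 12.57 and whose replicate 2 read 8.15.

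**Figure D1:**
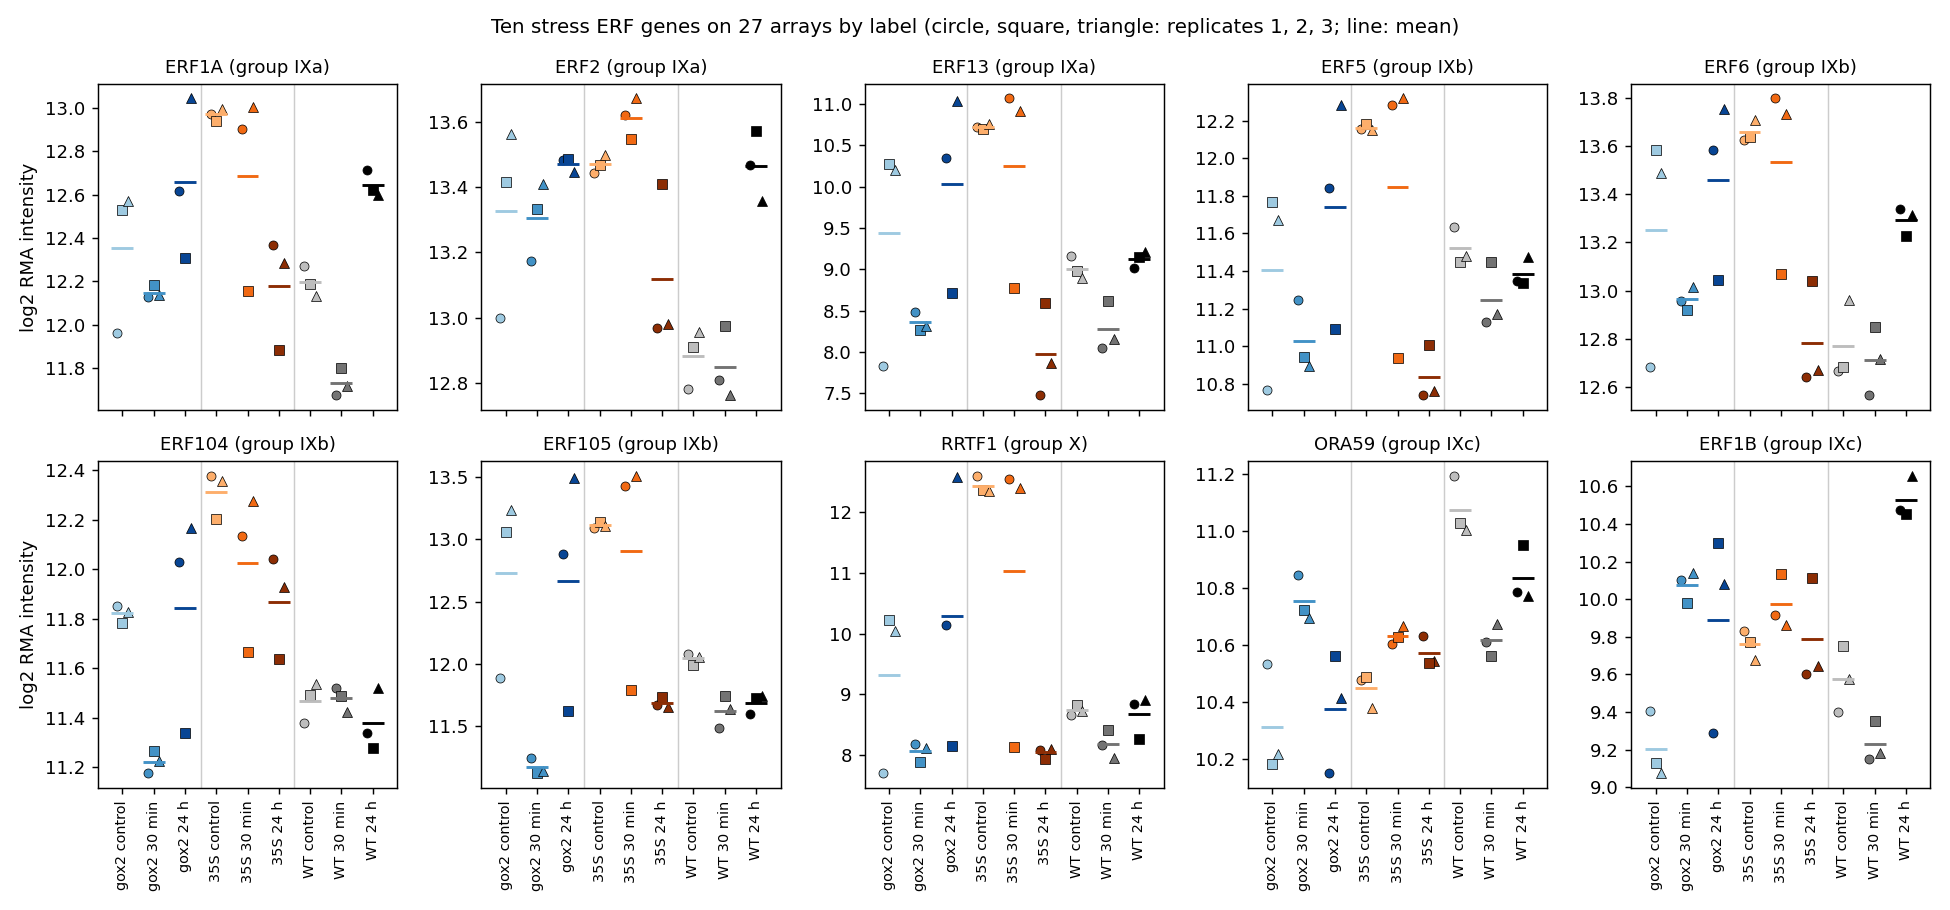
Log2 RMA intensity (y axis) of each gene on each array, with the 9 labelled groups on the x axis, replicates 1, 2 and 3 as circle, square and triangle, and a line at the group mean. RRTF1 spans 7.71 to 12.60, and its arrays labelled gox2 Cd 24 h and 35S::GOX2 Cd 30 min spread from about its lowest to its highest readings, whereas the WT groups stay tight.

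Group IXa proteins are activators that bind the GCC box. ERF13 (AT2G44840) resembled RRTF1, with a range of 3.60 over the arrays. ERF13 on the gox2 arrays read 7.83, 10.28 and 10.21 in control, 8.48, 8.27 and 8.32 at 30 min, and 10.35, 8.72 and 11.04 at 24 h. The 35S::GOX2 arrays had ERF13 at 10.72, 10.70 and 10.76 in control, 11.07, 8.77 and 10.91 at 30 min, and 7.47, 8.59 and 7.87 at 24 h. In WT, ERF13 stood at 9.16, 8.98 and 8.89 in control, 8.04, 8.62 and 8.16 at 30 min, and 9.01, 9.15 and 9.21 at 24 h. The 35S::GOX2 control arrays were all above the WT control arrays, and the 35S::GOX2 Cd 24 h arrays all below them. ERF1A (AT4G17500) moved in a narrower band, from 11.67 to 13.04. On average it was highest in 35S::GOX2 control (12.97, 12.94 and 13.00) and lowest in WT Cd 30 min (11.67, 11.80 and 11.72), with WT control at 12.27, 12.19 and 12.13. ERF2 (AT5G47220) had the smallest range of all members, 0.91, close to the median of 0.886 over all features. ERF2 read 13.44, 13.47 and 13.50 in 35S::GOX2 control and 13.47, 13.57 and 13.36 in WT Cd 24 h, against 12.78, 12.91 and 12.96 in WT control. The groups did not overlap in either case.

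ERF105 (AT5G51190) had the widest range in group IXb, 2.38, and is known in Arabidopsis from cold responses. ERF105 on the gox2 arrays read 11.88, 13.06 and 13.23 in control, 11.24, 11.13 and 11.14 at 30 min, and 12.88, 11.63 and 13.49 at 24 h. For 35S::GOX2, ERF105 gave 13.09, 13.13 and 13.11 in control, 13.42, 11.79 and 13.51 at 30 min, and 11.67, 11.73 and 11.65 at 24 h. All WT arrays lay between 11.49 and 12.08 for ERF105, with control at 12.08, 11.99 and 12.06. The 35S::GOX2 control arrays therefore stood apart from WT by about the same amount on each array, with an SD of 0.02 among them. ERF5 (AT5G47230) and ERF6 (AT4G17490), both substrates of MPK3 and MPK6, also had their highest group mean in 35S::GOX2 control. ERF5 read 10.74, 11.01 and 10.76 in 35S::GOX2 Cd 24 h and 12.15, 12.18 and 12.15 in 35S::GOX2 control, while WT control stood at 11.64, 11.45 and 11.48. For ERF6 the values were 12.64, 13.04 and 12.67 in 35S::GOX2 Cd 24 h and 13.62, 13.64 and 13.71 in 35S::GOX2 control, with WT control at 12.67, 12.68 and 12.96. The 35S::GOX2 Cd 24 h arrays overlapped WT control for ERF6 and lay below it for ERF5. ERF104 (AT5G61600), which is released from MPK6 during flagellin signalling, read 12.38, 12.20 and 12.36 in 35S::GOX2 control, 11.18, 11.27 and 11.23 in gox2 Cd 30 min and 11.38, 11.49 and 11.54 in WT control.

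The group IXc genes, which act at the meeting point of ethylene and jasmonate, did not share that pattern. ORA59 (AT1G06160) was highest in WT control, at 11.19, 11.03 and 11.01. ORA59 read 10.53, 10.18 and 10.22 in gox2 control and 10.48, 10.49 and 10.38 in 35S::GOX2 control, so that both lines lay below all WT control arrays. It read 10.85, 10.72 and 10.69 in gox2 Cd 30 min and 10.61, 10.56 and 10.67 in WT Cd 30 min. ERF1B (AT3G23240, often called ERF1) was highest in WT Cd 24 h, at 10.47, 10.45 and 10.66, against 9.40, 9.75 and 9.58 in WT control. ERF1B on the gox2 arrays was at 9.41, 9.13 and 9.08 in control, 10.10, 9.98 and 10.14 at 30 min, and 9.29, 10.30 and 10.08 at 24 h. Here the gox2 arrays at 30 min were above the gox2 control arrays without overlap.

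When the 9 group means of each gene were put in order, 7 of the 10 genes were highest in 35S::GOX2 control: ERF1A, ERF13, ERF5, ERF6, ERF104, ERF105 and RRTF1. For RRTF1 the order was 35S::GOX2 control (12.43), 35S::GOX2 Cd 30 min (11.03), gox2 Cd 24 h (10.29), gox2 control (9.33), WT control (8.74), WT Cd 24 h (8.67), WT Cd 30 min (8.18), gox2 Cd 30 min (8.06) and, last, 35S::GOX2 Cd 24 h (8.05). ERF2 was highest in 35S::GOX2 Cd 30 min (13.61), ORA59 in WT control (11.08) and ERF1B in WT Cd 24 h (10.53). The means of 35S::GOX2 Cd 30 min and gox2 Cd 24 h average arrays that read unlike. Replicates 1 and 3 of the former and replicate 3 of the latter lay above all 35S::GOX2 control arrays for some genes. These were ERF13 (10.91 to 11.07 against 10.70 to 10.76), ERF5, ERF6 and ERF105 (13.42 to 13.51 against 13.09 to 13.13). For ERF1A, ERF104 and RRTF1 they overlapped them. Of the 80 pairs of neighbouring groups in these orders, 0 passed limma's two-sided moderated test after Benjamini-Hochberg adjustment over the 37118 features (threshold 0.05), with a lowest adjusted p of 0.141, and 4 had an unadjusted p under 0.05. Only groups further apart in the order could be told apart, and the comparisons below give these.

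Without Cd, the arrays labelled 35S::GOX2 control carried the clearest difference. GOX2 itself was low on them, at 9.60 to 9.79 against 13.69 to 13.77 in WT control. RRTF1 was 13.0-fold higher in 35S::GOX2 control than in WT control, ERF13 was 3.29-fold and ERF105 2.1-fold higher, and ERF6, ERF104, ERF1A and ERF2 rose by less. ORA59 alone fell, and ERF5 and ERF1B did not pass the test. In counts, 7 members were higher and 1 was lower, against 38.3% of all features past the threshold (16.2% higher and 22.1% lower). Their median log2 fold change was 0.81, beside -0.07 over all features. RRTF1 changed by 3.70 (SE 0.94, limma adjusted p = 0.00416), ERF13 by 1.72 (SE 0.60, adjusted p = 0.0283) and ERF104 by 0.84 (SE 0.16, adjusted p = 0.000472). ORA59 fell by 0.63 (SE 0.10, adjusted p = 5.97e-05), while ERF5 was at 0.64 with an adjusted p of 0.101 and ERF1B at 0.18 with 0.446. For 9 members the highest array of the lower group was below the lowest array of the higher, as it was for 60.7% of features. All 6 arrays were on the same slide. Without any 1 of them the calls of ERF13 (adjusted p of 0.0527 to 0.0709) and ERF105 (0.0737 to 0.0899) were lost, while the other 6 calls held. With the 4 groups of mixed arrays left out of the fit, an alternative chosen after seeing the data, ERF5 passed as well (adjusted p = 0.000224) and RRTF1 had an adjusted p of 1.26e-08. The mean log2 level of the root markers, relative to their mean over all arrays, was 0.21 to 0.32 in 35S::GOX2 control and 0.26 to 0.45 in WT control. Whole tissue was measured, so that fewer cells of a type and less RNA per cell cannot be told apart.

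**Figure D2:**
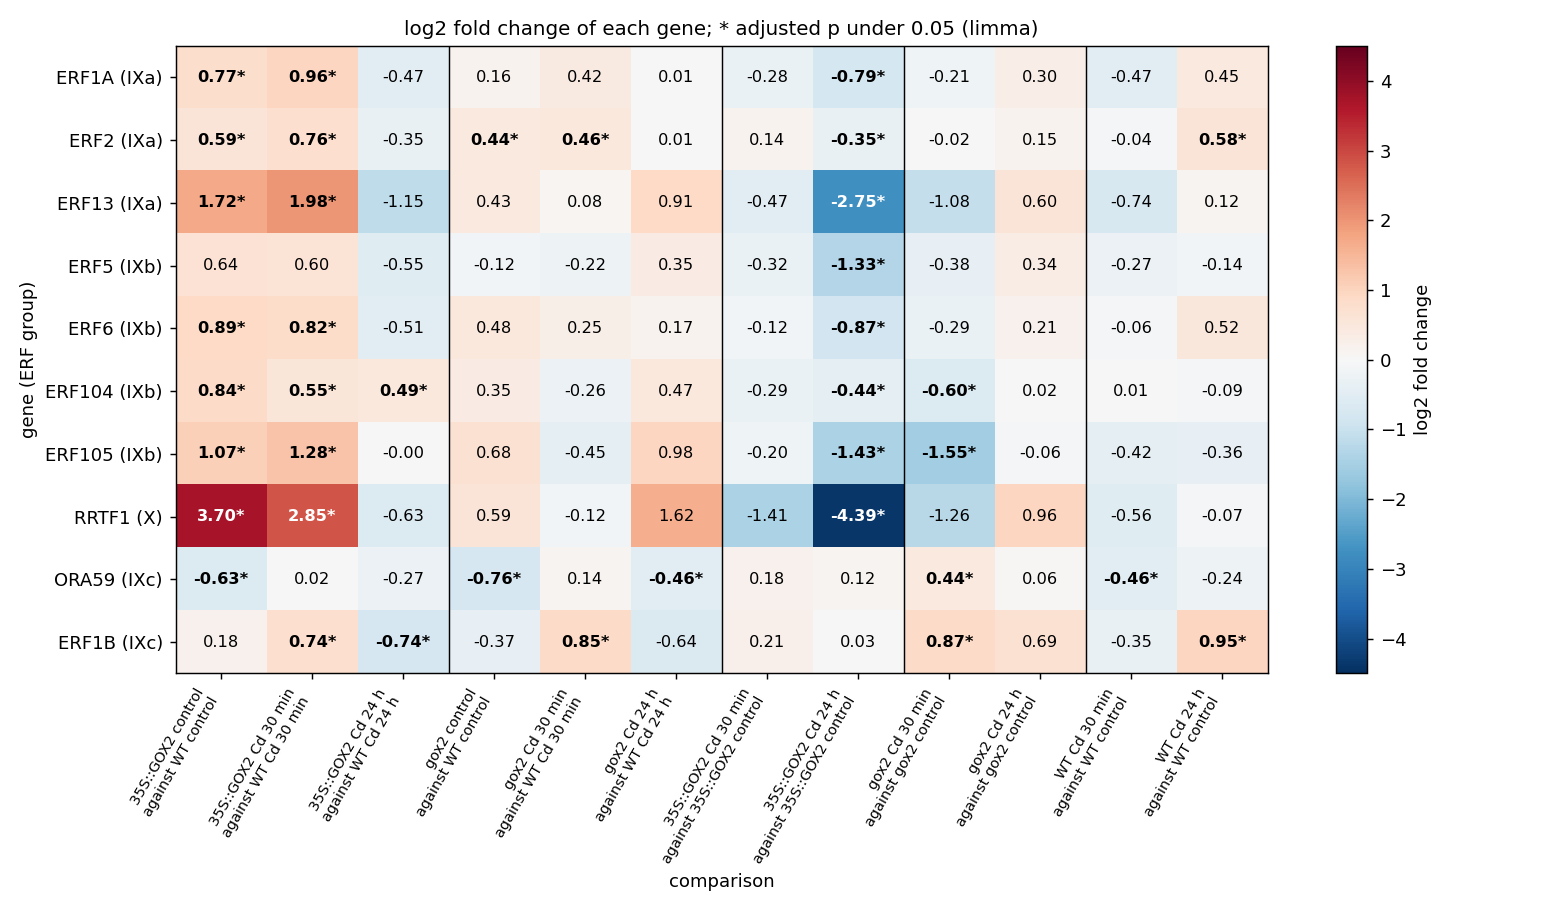
Log2 fold change of each gene (rows, with ERF group) in the 12 comparisons of labelled groups (columns), as colour and number, with an asterisk where limma's adjusted p is under 0.05. The first column holds the rises of 35S::GOX2 control against WT control, up to 3.70 for RRTF1, and the column of 35S::GOX2 Cd 24 h against its control the falls, down to -4.39.

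After 24 h of Cd most of the ERF genes were lower on the arrays labelled 35S::GOX2. RRTF1 was 21.0-fold lower in 35S::GOX2 Cd 24 h than in 35S::GOX2 control, ERF13 6.72-fold, ERF105 2.69-fold and ERF5 2.51-fold lower, and ERF6, ERF1A, ERF104 and ERF2 fell too. ERF104 (11.64 to 12.04) and ERF2 (12.97 to 13.41) still lay above all WT control arrays (11.38 to 11.54 for ERF104, 12.78 to 12.96 for ERF2). ORA59 and ERF1B, the 2 genes of group IXc, were at 0.12 and 0.03 on the log2 scale and did not pass. The count was 8 lower and 0 higher, against 43.9% of features past the threshold (23.6% higher and 20.2% lower), and the median was -0.83 beside 0.04 over all features. For 9 members the groups did not overlap, beside 54.7% of features. RRTF1 fell by 4.39 (SE 0.94, limma adjusted p = 0.00101) and ERF5 fell by 1.33 (SE 0.30, adjusted p = 0.00173). Both comparisons above share the 35S::GOX2 control arrays, so a high reading there enters both. No slide held arrays of both groups. A random slide block left 6 members past the threshold, ERF2 (adjusted p = 0.121) and ERF104 (0.0783) being lost. ERF104 was also lost without 35S::GOX2 control replicate 1 or 3 or without Cd 24 h replicate 2 or 3 (adjusted p up to 0.14), and ERF2 without control replicate 2 or 3 or Cd 24 h replicate 1 or 3 (up to 0.115). Root markers moved in the same direction, with 6 of 10 lower: their mean relative log2 level was -0.68 to -0.40 in the 35S::GOX2 Cd 24 h arrays and 0.21 to 0.32 in the 35S::GOX2 control arrays. Their part in the result was not tested.

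After 30 min of Cd, RRTF1 was at 7.20-fold and ERF13 at 3.95-fold the WT level in the 35S::GOX2 arrays, and ERF105, ERF1A, ERF6, ERF2, ERF1B and ERF104 were higher too. That made 8 members higher and 0 lower than in WT Cd 30 min, against 16.9% of features past the threshold (8.11% higher and 8.76% lower). Groups without overlap were found for 7 members, beside 34.2% of features. ERF2 rose by 0.76 on the log2 scale (SE 0.12, limma adjusted p = 0.000661) and ERF1A by 0.96 (SE 0.19, adjusted p = 0.00285). The RRTF1 arrays of the groups overlapped, with 35S::GOX2 Cd 30 min replicate 2 at 8.13 and the WT Cd 30 min arrays at 7.95 to 8.41. Without that array RRTF1 was at 4.30 in place of 2.85, ERF5 joined the calls at 1.05 (adjusted p = 0.00894), and 9 members passed. Leaving out 1 of the other 5 arrays left 3 (35S::GOX2 Cd 30 min replicate 1 or 3), 2 (WT Cd 30 min replicate 1), 5 (WT replicate 2) or 4 (WT replicate 3). ERF1A and ERF2 passed every time. The groups were on different slides: 1 member (ERF2) passed with slide as a random block and 0 with slide as a fixed block, where RRTF1 was at -0.58 (adjusted p = 0.859). The fixed block took the difference between these slides from gox2 Cd 24 h alone, a group of mixed arrays. RRTF1 read 10.15 and 8.15 on its slide 2 arrays and 12.57 on its slide 3 array. Slide and array mixing therefore cannot be told apart in that fit. The mean relative level of the root markers was also low on 35S::GOX2 Cd 30 min replicate 2. It was 0.45, -0.56 and 0.47 in 35S::GOX2 Cd 30 min replicates 1, 2 and 3, against 0.20 to 0.32 in WT Cd 30 min. Set against their own control, the 35S::GOX2 arrays at 30 min showed 0 of 10 members past limma's threshold, where 23% of features were (12.2% higher and 10.7% lower), and 3 that did not overlap, beside 42.2% of features. At an unadjusted p under 0.05 limma gave 0 and the methods' t-test 2. RRTF1 was at -1.41 (SE 0.94, adjusted p = 0.295) with all arrays and at 0.04 without replicate 2. No slide held arrays of both 35S::GOX2 Cd 30 min and 35S::GOX2 control.

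At 24 h of Cd the 35S::GOX2 arrays were close to or below WT Cd 24 h, with ERF104 higher (0.49, SE 0.16, limma adjusted p = 0.0472) and ERF1B lower (fell by 0.74, SE 0.18, adjusted p = 0.0103). These were 1 higher and 1 lower of 10, against 14.6% of features (7.51% higher and 7.06% lower). For 8 members the groups did not overlap, beside 35.1% of features. RRTF1 was at -0.63 (adjusted p = 0.705) and ERF13 at -1.15 (adjusted p = 0.21). The ERF104 call was lost without any 1 of 5 of the 6 arrays (adjusted p up to 0.181) and ERF1B without 35S::GOX2 Cd 24 h replicate 1 (0.0579) or 3 (0.0506). Without 35S::GOX2 Cd 24 h replicate 2, both held and ERF2 was also lower, at -0.49. The groups lay on different slides. With slide as a random block 0 members passed, and root markers were lower for 6 of 10 (mean relative level -0.68 to -0.40 in 35S::GOX2 Cd 24 h and -0.09 to 0.03 in WT Cd 24 h).

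In WT itself, Cd moved few of these genes. At 30 min ORA59 fell by 0.46 (SE 0.10, limma adjusted p = 0.0027) relative to WT control and no other member passed, 1 of 10 beside 15% of features (8.6% higher and 6.43% lower). For 6 members the groups did not overlap, beside 42.4% of features. This call held without any 1 of the 6 arrays but not with slide as a random block (adjusted p = 0.0601). WT Cd 30 min and WT control lay on different slides. At 24 h ERF1B rose 1.93-fold (0.95 on the log2 scale, SE 0.18, adjusted p = 0.0124) and ERF2 by 0.58 (SE 0.12, adjusted p = 0.0188), 2 of 10 beside 3.22% of features (1.5% higher and 1.72% lower). Again 6 members did not overlap, beside 38.9% of features. RRTF1 was at -0.07 (SE 0.94) there and ERF13 at 0.12 (SE 0.60). All arrays of this comparison were on the same slide. The ERF1B call was lost without WT control replicate 1 (adjusted p = 0.0696) or WT Cd 24 h replicate 1 (0.0525) or 3 (0.069), and ERF2 passed only with all arrays or without WT control replicate 3 (0.0555 to 0.0924 otherwise). The 9 groups share a single estimate of the spread, to which the groups with mixed arrays contribute. With those groups left out of the fit, 6 members were lower in WT Cd 30 min than in WT control (ERF1A, ERF13, ERF105, RRTF1, ORA59 and ERF1B). RRTF1 was then at -0.56 with an adjusted p of 0.0222 and ERF13 at -0.74 with 0.00158. In WT Cd 24 h, 4 were then higher (ERF1B, ERF2, ERF6 and ERF1A) and 2 lower (ERF105 and ORA59). The shares of all features above belong to the fit of all 9 groups, and none is given for this fit. Its counts therefore describe the members only and cannot be set against other genes.

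The gox2 control arrays differed from WT control in 2 members. ERF2 rose by 0.44 (SE 0.12, limma adjusted p = 0.011) and ORA59 fell by 0.76 (SE 0.10, adjusted p = 6.69e-05), 2 of 10 beside 26.9% of features (12.1% higher and 14.8% lower), and 3 did not overlap, beside 44.7%. RRTF1 was at 0.59 (SE 0.94), its 3 arrays reading 7.71, 10.23 and 10.05. Without gox2 control replicate 1, ERF6 (0.76) and ERF105 (1.1) passed as well, and without replicate 3 ERF2 did not (0.32, adjusted p = 0.0829). The gox2 control and WT control arrays lay on different slides. With slide as a random block ORA59 alone passed. Root markers were lower for 6 of 10, with a mean relative level of -0.42 to -0.16 in gox2 control and 0.26 to 0.45 in WT control, and their part in the result was not tested.

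After 30 min of Cd, the gox2 arrays had more ERF1B and ORA59 and less ERF105 and ERF104 than the gox2 control arrays. ERF1B rose by 0.87 (SE 0.18, limma adjusted p = 0.00156) and ORA59 by 0.44 (SE 0.10, adjusted p = 0.0021), whereas ERF105 fell by 1.55 (SE 0.40, adjusted p = 0.00651) and ERF104 fell by 0.60 (SE 0.16, adjusted p = 0.00949). The 4 calls stood beside 27.7% of features (15.3% higher and 12.4% lower), 4 members did not overlap, beside 44.9%, and all 4 calls held without any 1 array. Without gox2 control replicate 1, ERF13 (-1.88) and ERF6 (-0.57) were lower too, giving 6 calls. The gox2 Cd 30 min and gox2 control arrays lay on different slides. With slide as a random block, ERF105 (adjusted p = 0.095) and ERF104 (0.118) were lost. Root markers were higher for 4 of 10, at -0.05 to -0.01 in gox2 Cd 30 min and -0.42 to -0.16 in gox2 control. Against WT Cd 30 min, ERF1B (0.85, SE 0.18, adjusted p = 0.012) and ERF2 (0.46, SE 0.12, adjusted p = 0.0282) were higher in gox2 Cd 30 min, 2 of 10 beside 7.67% of features (3.67% higher and 4% lower), and 7 did not overlap, beside 42.2%. ERF1B was lost without WT Cd 30 min replicate 1 (adjusted p = 0.0595), ERF2 without any 1 of 5 of the 6 arrays, and both with slide as a random block. The gox2 Cd 30 min and WT Cd 30 min arrays also lay on different slides.

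At 24 h the gox2 arrays differed widely from each other, most of all for RRTF1. Against gox2 control, 0 of 10 members passed limma's threshold, beside 0.0135% of features (0.00269% higher and 0.0108% lower). No member had groups without overlap, beside 10.8% of features. At an unadjusted p under 0.05 limma gave 1 (ERF1B, 0.69, adjusted p = 0.153) and the methods' t-test 0. Without gox2 Cd 24 h replicate 1, ERF1B was at 0.99 with an adjusted p of 0.00213. Against WT Cd 24 h, ORA59 fell by 0.46 (SE 0.10, adjusted p = 0.0232), 1 of 10 beside 2.14% of features (0.964% higher and 1.17% lower), and 2 did not overlap, beside 20.9%. That call was lost without any 1 of 4 of the 6 arrays (adjusted p of 0.0518 to 0.184) and with slide as a random block (0.306). No slide held arrays of both gox2 Cd 24 h and WT Cd 24 h. Without gox2 Cd 24 h replicate 2, ERF105 (1.50) and ERF104 (0.72) were higher and ERF1B (-0.84) was lower as well.

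Whether a line answered Cd otherwise than WT was tested directly, as the difference of its Cd response and that of WT. At 24 h the 35S::GOX2 response was lower than the WT response for 7 members (RRTF1, ERF13, ERF6, ERF1A, ERF5, ERF2 and ERF1B), against 27.5% of features past the threshold (14.9% higher and 12.7% lower). RRTF1 differed by -4.32 (SE 1.32, limma adjusted p = 0.0208) and ERF6 by -1.39 (SE 0.30, adjusted p = 0.00277). At 30 min the gox2 response was higher for ORA59 and ERF1B (27% of features past the threshold, 14% higher and 13% lower) and the 35S::GOX2 response for ORA59 (29.7%, 16.1% higher and 13.6% lower). At 24 h 0 members differed between gox2 and WT at an adjusted p under 0.05, beside 0.0162% of features (0.00539% higher and 0.0108% lower). At an unadjusted p under 0.05 limma gave 2 there, ORA59 (0.30) and ERF2 (-0.44). With slide as a random block, ORA59 (adjusted p = 0.0561) and ERF1B (0.113) at 30 min in gox2 and ERF5 (0.0744) at 24 h in 35S::GOX2 were lost. ERF5 was also lost without any 1 of 11 of the 12 arrays (0.0596 to 0.0889). All these tests rest on the same control arrays as the comparisons above. For the 24 h response of 35S::GOX2 and the 30 min response of gox2, differences between slides enter the test and cannot be separated.

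Few of these changes were large. Of the members past limma's threshold, 3 had changed by at least 1 on the log2 scale in 35S::GOX2 control against WT control (RRTF1, ERF13 and ERF105), where 8.54% of features had. There were 4 in 35S::GOX2 Cd 24 h against 35S::GOX2 control (RRTF1, ERF13, ERF105 and ERF5, beside 8.53% of features) and 3 in 35S::GOX2 Cd 30 min against WT Cd 30 min (RRTF1, ERF13 and ERF105, beside 3.46%). In gox2 Cd 30 min against gox2 control ERF105 alone had done so (2.83%). The other 8 comparisons had 0 such members by limma: 35S::GOX2 Cd 30 min against 35S::GOX2 control (4.95% of features), 35S::GOX2 Cd 24 h against WT Cd 24 h (1.2%), gox2 control against WT control (3.45%), gox2 Cd 30 min against WT Cd 30 min (1.4%), gox2 Cd 24 h against WT Cd 24 h (0.181%), gox2 Cd 24 h against gox2 control (0.00269%), WT Cd 30 min against WT control (3.91%) and WT Cd 24 h against WT control (0.913%).

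Over the 27 arrays the 8 genes outside group IXc moved together. Their 28 pairs had Pearson correlations of 0.34 to 0.96, 16 of them above 0.8, with ERF13 and ERF5 at 0.96 and ERF13 and RRTF1 at 0.94. ORA59 was negatively correlated with all 8 (-0.57 to -0.26), and ERF1B ranged from -0.26 to 0.48. These are descriptions over arrays that share groups and slides. The loci most like RRTF1 over the arrays were OPCL1 (0.98), ERD7 (0.98) and SCL13 (0.98). For ERF105 they were SARD1 (0.99), MYB77 (0.98) and NDR1 (0.98), and for ERF5 ZAR1 (0.98), LYK5 (0.98) and PAD4 (0.97). ERF6 was closest to NAC036 (0.97), ERF13 to AT1G14200 (0.99), ERF104 to AT1G25400 (0.94), ERF1A to CYP94B3 (0.95) and ERF2 to AT4G37290 (0.94). ORA59 (AT4G17350, 0.91) and ERF1B (AT5G19880, 0.92) had less similar partners. None of the 3 closest loci of any member was itself a member.

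**Figure D3:**
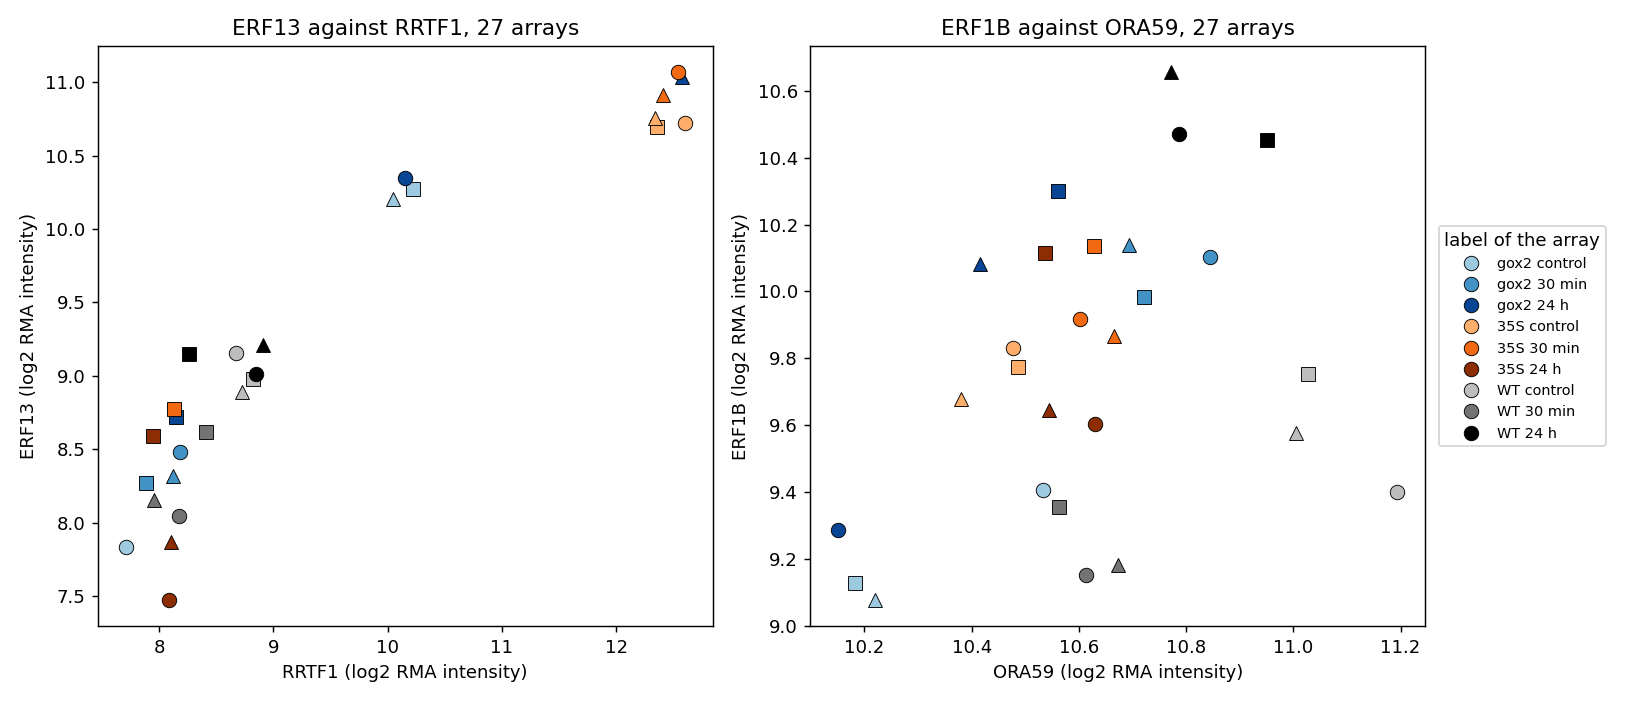
Log2 RMA intensity of ERF13 against RRTF1 (left) and of ERF1B against ORA59 (right), 1 point per array (n = 27) coloured by its label, with replicates 1, 2 and 3 as circle, square and triangle. ERF13 follows RRTF1 (r = 0.94), with 6 arrays above 12 for RRTF1 that carry 3 different labels, whereas ERF1B and ORA59 are weakly related (r = 0.36).

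The pathway around these factors was read from lists of genes that act before or after them. These lists, too, were chosen with earlier results of these data known. In 35S::GOX2 control against WT control, 4 of the 8 genes of the MAP kinase cascade and the calmodulin-binding activators (CAMTA) were higher and 1 was lower, where 16.2% of all features were higher and 22.1% lower. The kinase kinases MKK4 (0.80), MKK9 (0.59) and MKK5 (0.43) and their target MPK3 (0.68) rose, whereas MPK6 fell by 0.19. The list's median was 0.34, beside -0.07 over all features. Of 11 ethylene biosynthesis genes, 3 were higher and 2 lower, the lower count being near the 22.1% of all features: the ACC synthases ACS11 (1.52), ACS7 (1.51) and ACS6 (1.33, known as an MPK3 and MPK6 substrate) rose, and ACS5 (-2.28) and the ACC oxidase ACO1 (-1.14) fell, with a median of -0.03. Ethylene perception and signalling had 5 of 12 genes lower and 0 higher by limma, beside the same shares of all features, led by the receptors ETR2 (-0.85), ETR1 (-0.47) and ERS2 (-0.44) and by EIL1 (-0.32), with a median of -0.29. Among 8 defence targets of ORA59 and ERF1B, the basic chitinase CHI-B (-0.45) and HEL (-0.41), also known as PR4, were lower and 0 were higher by limma, a lower count near the 22.1% of all features. The plant defensin PDF1.2a was at 0.08 and did not pass. Limma's adjusted p ranged from 0.000151 (ACS7) to 0.0386 (MPK6) over the genes named as changed. MPK6, ACO1 and PDF1.2a were named after their values were seen.

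**Figure D4:**
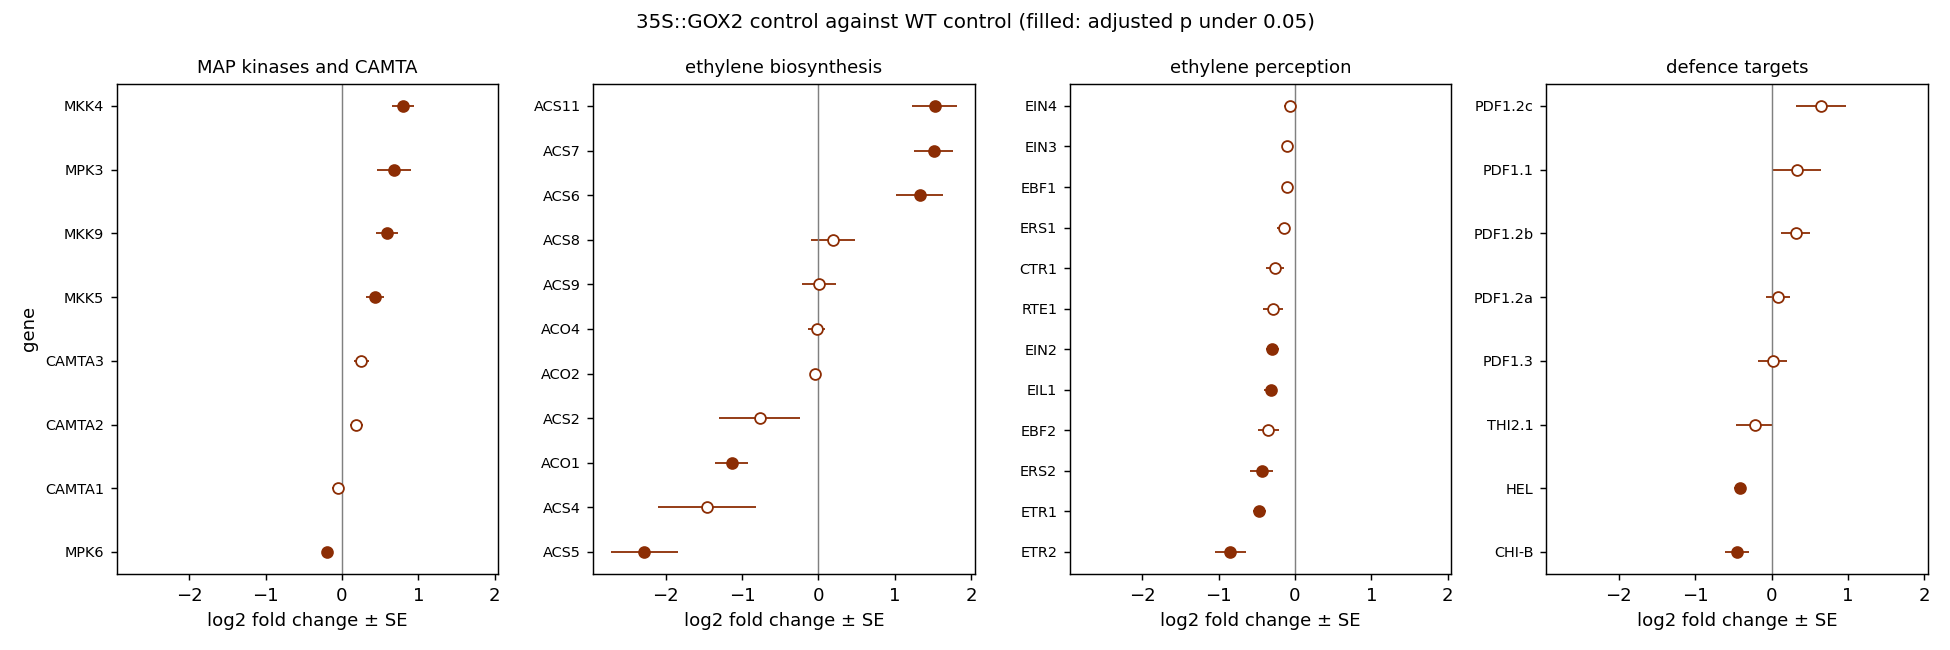
Log2 fold change ± SE (x axis) of every gene (y axis) of 4 lists in 35S::GOX2 control against WT control, n = 3 arrays each, filled where limma's adjusted p is under 0.05. MAP kinase genes lie mostly to the right (MKK4 at 0.80), all ethylene perception genes to the left (ETR2 at -0.85), and ACC synthases on both sides.

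Related ERF genes that are no members behaved unevenly in that comparison. In group IX, ERF096 (2.77) and TDR1 (1.79) were higher and ERF091 was lower (-0.55) of 8 measured. In group X, ABR1 (1.45) and ERF115 (1.22) were higher of 7, and among 8 repressor ERFs of group VIII ERF11 (1.51) and ERF7 (0.25) were higher and ERF9 (-0.74) was lower. These counts of 1 or 2 genes stood beside 16.2% of all features higher and 22.1% lower. In 35S::GOX2 Cd 24 h against 35S::GOX2 control, the MAP kinase and CAMTA list had 6 of 8 genes lower and 1 higher (median -0.42, beside 0.04 over all features, of which 23.6% were higher and 20.2% lower), led by MPK3 (-1.01), MKK9 (-0.64) and MKK4 (-0.63). Of the ACC synthases, ACS2 (1.64) and ACS5 (1.45) were higher and ACS6 (-1.49) and ACS11 (-1.39) were lower. TDR1 (-1.85), ERF096 (-1.72) and ERF11 (-1.56) were also lower, and ethylene perception had 7 of 12 genes higher, ERS2 (0.62) and ETR2 (0.67) among them. Ethylene perception was higher for 11 of 12 genes in gox2 Cd 30 min against gox2 control, where 15.3% of all features were higher. ETR2 (0.84), ERS2 (0.78), RTE1 (0.60) and CTR1 (0.57) led, in the comparison in which ERF1B and ORA59 rose. These groups lay on different slides, and gox2 control holds mixed arrays. No list gene was tested with a slide block or with arrays left out, and a link to the ERF genes was not tested. In WT Cd 24 h against WT control, where ERF1B and ERF2 rose, ACS2 (2.08) and ACS7 (1.37) and the group X genes ERF115 (1.18) and ERF112 (0.70) were higher.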

How the data were processed

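Total RNA of each sample was hybridised to a single-colour (Cy3) NimbleGen array. The authors deposited for each feature an RMA intensity on the linear scale, summarised by their array laboratory over its probe pairs; software versions and the genome build are not given in the sources used here, and limma is named in the submitters' notes without a role. No background or detection value is held. Whether the low readings of RRTF1 and ERF13, which enter their fold changes, lie near background could therefore not be judged. Precision is limited by 3 arrays per group. The series table held the same values as the files of single arrays.

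Because array medians on the log2 scale ranged from 10.02 to 10.17, the deposited intensities were quantile-normalized after log2. With limma 3.58.1 (R 4.3.3) the means of the 9 groups were fitted together, and the 12 comparisons and 4 differences of responses were tested two-sided with Benjamini-Hochberg adjustment over 37118 features (threshold 0.05). Scripts were tested on simulated data. A gene was represented by its feature of highest mean, and symbols came from a RefSeq table that matched 31993 of 32627 loci. Lists were ERF groups IX, X and VIII, ethylene biosynthesis and perception, MAP kinases and CAMTA, defence targets, the MYC2 branch, and leaf and root markers, from which up to 4 called genes per comparison were named by size of change, beside all 10 members and the 3 most similar loci of each. The members and lists were chosen with earlier results of these data known. The relative level of a marker list is the mean over its genes of log2 minus the mean of 27 arrays. Slides were read from image names. Groups follow the labels. Alternatives changed normalization, table, filter, feature, replicate or slide block, arrays, threshold or test.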

Additional observations from a re-analysis of the deposited data

Results flagged for a closer look

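For 10 results, the Cd response of a line differed from that of WT by limma's test of the difference itself (adjusted p under 0.05, Benjamini-Hochberg). At 30 min the gox2 response exceeded that of WT by 0.90 for ORA59 (SE 0.14, adjusted p = 0.000307) and by 1.22 for ERF1B (SE 0.26, adjusted p = 0.00245) on the log2 scale. The 35S::GOX2 response at 30 min exceeded that of WT by 0.64 for ORA59 (SE 0.14, adjusted p = 0.00112). At 24 h the 35S::GOX2 response minus that of WT was -4.32 for RRTF1 (SE 1.32, adjusted p = 0.0208), -2.86 for ERF13 (SE 0.84, adjusted p = 0.0172) and -1.39 for ERF6 (SE 0.30, adjusted p = 0.00277). It was -1.24 for ERF1A (adjusted p = 0.00338), -0.93 for ERF2 (adjusted p = 0.00117), -0.92 for ERF1B (adjusted p = 0.0127) and -1.19 for ERF5 (adjusted p = 0.044). ERF5 passed only with all arrays or without 35S::GOX2 Cd 24 h replicate 2, and was lost without any 1 of the other 11 (adjusted p of 0.0596 to 0.0889). With slide as a random block, ORA59 (0.0561) and ERF1B (0.113) at 30 min in gox2 and ERF5 (0.0744) were lost. Slide differences cannot be separated from the 24 h response of 35S::GOX2 or the 30 min response of gox2.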

How the results depend on the processing

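The counts of ERF genes past limma's threshold were the same, within 1.5 times, in all 16 comparisons and differences of responses for the deposited table of all arrays and for loci averaged over their features. Shares of all features are given above for limma's fit of all 9 groups, with and without a log2 change of at least 1. None is given for the other alternatives, the t-tests included, so their counts describe the ERF genes only. The replicate numbers were not treated as pairs. No comparison had all 3 same-numbered pairs deviating together, gox2 Cd 30 min against control coming nearest (r of 0.18, 0.09 and 0.44). This check cannot settle whether the arrays were paired, since mixed arrays move the group means it uses. With the replicate number as a block (replicate block), the 16 counts also stayed within 1.5 times, and of 160 gene values 2 gained and 0 lost a call. With values as deposited, 35S::GOX2 Cd 24 h against WT Cd 24 h had 1 call in place of 2 and the 30 min response of 35S::GOX2 against that of WT 2 in place of 1. With the dimmest 25% of features left out the count for 35S::GOX2 Cd 24 h against WT Cd 24 h was 4. Slide as a random block (correlation 0.236) gave 0 calls for WT Cd 30 min against control (1 otherwise), gox2 Cd 30 min against WT (2), gox2 Cd 24 h against WT (1), 35S::GOX2 Cd 24 h against WT (2) and the 30 min response of gox2 against that of WT (2), 2 in place of 4 for gox2 Cd 30 min against control, 1 in place of 2 for gox2 control against WT and 1 in place of 8 for 35S::GOX2 Cd 30 min against WT. Slide as a fixed block, which only 6 comparisons allowed, gave 0 for that last comparison, with RRTF1 turned to -0.58 (adjusted p = 0.859). The slide difference used there came from gox2 Cd 24 h alone, a group of mixed arrays, so slide and mixing cannot be told apart. With only the arrays of the groups compared there were 5 calls for WT Cd 30 min and for WT Cd 24 h against control and for gox2 Cd 30 min against WT, 2 for 35S::GOX2 Cd 30 min against WT, 0 for gox2 Cd 24 h against WT, and 4 and 2 for the 30 min responses of gox2 and 35S::GOX2 against that of WT. With a log2 change of at least 1 also required, the counts were 4 (35S::GOX2 Cd 24 h against control), 3 (35S::GOX2 control and 35S::GOX2 Cd 30 min against WT), 1 (gox2 Cd 30 min against control and the 30 min response of gox2) and 0 (WT Cd 30 min and Cd 24 h against control, gox2 control, gox2 Cd 30 min, gox2 Cd 24 h and 35S::GOX2 Cd 24 h against WT, and the 30 min response of 35S::GOX2).

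The methods' t-test without adjustment called 6 for WT Cd 30 min and WT Cd 24 h against control and gox2 Cd 30 min against WT, 2 for 35S::GOX2 Cd 30 min against control, 5 for 35S::GOX2 Cd 30 min and 8 for 35S::GOX2 Cd 24 h against WT. After Benjamini-Hochberg adjustment it called 5 for WT Cd 24 h against control, 4 for gox2 Cd 30 min against WT, 2 for gox2 Cd 30 min against control and 0 for WT Cd 30 min against control and for 35S::GOX2 Cd 30 min, gox2 Cd 24 h and 35S::GOX2 Cd 24 h against WT. Leaving the 4 groups of mixed arrays out of the fit was chosen after seeing the data. It gave 6 for WT Cd 30 min and WT Cd 24 h against control and for gox2 Cd 30 min against WT. Comparing gox2 Cd 24 h with its control within the slide they share was also chosen after seeing the data. This left a single gox2 Cd 24 h array, replicate 3, with ERF1B at 0.88 against control. That array was closest to arrays labelled 35S::GOX2 Cd 30 min. Without 1 array at a time, the counts ranged from 6 to 7 (35S::GOX2 Cd 24 h against control), 0 to 3 (35S::GOX2 Cd 24 h against WT), 2 to 9 (35S::GOX2 Cd 30 min against WT), 0 to 1 (gox2 Cd 24 h against control), 0 to 4 (gox2 Cd 24 h against WT), 4 to 6 (gox2 Cd 30 min against control), 0 to 2 (gox2 Cd 30 min against WT), 1 to 4 (gox2 control against WT), 0 to 2 (WT Cd 24 h against control), 2 to 3 (30 min response of gox2) and 6 to 7 (24 h response of 35S::GOX2). They stayed at 6 for 35S::GOX2 control against WT and 1 for WT Cd 30 min against control. Over all single-gene values and alternatives, 2571 kept their side of the threshold, 84 gained and 174 lost a call, and 1 turned its direction. Causes of these shifts were not tested. The number of arrays limits precision, with a median SD within groups of 0.0879 to 0.191.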

Other observations

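Other gene groups also differed without Cd between the arrays labelled gox2 control and WT control. Among 7 other ERF genes of group X, 5 were higher in gox2 control, led by ERF114 (2.02 on the log2 scale), ERF115 (1.41), ABR1 (1.36) and RAP2.6L (1.07), and 0 were lower, where 12.1% of all features were higher and 14.8% lower. In the MYC2 branch of jasmonate signalling, which opposes the ORA59 branch, the vegetative storage protein genes VSP2 (-0.73) and VSP1 (-0.61) and the jasmonate receptor gene COI1 (-0.33) were lower, 3 of 5. The same branch had VSP1 (-1.02) and MYC2 (-0.84) lower in 35S::GOX2 Cd 24 h than in its control, 2 of 5, where 20.2% of all features were lower. These calls are limma's at an adjusted p under 0.05.

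Within each of the 4 sets of closest arrays that hold several labels, the arrays read alike for RRTF1 and ERF105. RRTF1 was at 12.41 to 12.57 in gox2 Cd 24 h replicate 3 with 35S::GOX2 Cd 30 min replicates 1 and 3, and at 10.05 to 10.23 in gox2 Cd 24 h replicate 1 with gox2 control replicates 2 and 3. It was at 7.94 to 8.15 in the replicates 2 of gox2 Cd 24 h, 35S::GOX2 Cd 30 min and 35S::GOX2 Cd 24 h, and at 7.71 to 8.10 in 35S::GOX2 Cd 24 h replicates 1 and 3 with gox2 control replicate 1. ERF105 was at 13.42 to 13.51, 12.88 to 13.23, 11.63 to 11.79 and 11.65 to 11.88 in the same 4 sets. ERF1A was at 12.91 to 13.04, 12.53 to 12.62, 11.88 to 12.31 and 11.96 to 12.37 in them. Its arrays were thus less alike in the sets with RRTF1 near 8, and the likeness was not general to the ERF genes. The features of the ERF genes were left out when these sets were found. The likeness is given as a description. On the slides, the first set held positions 1 to 3 of slide 3 and the last positions 4 to 6 of slide 3. RRTF1 did not follow GOX2: on the 9 arrays with low GOX2 it was at 12.34 to 12.60 (35S::GOX2 control) or at 7.88 to 8.41 (gox2 Cd 30 min and WT Cd 30 min).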
